A study of Mus musculus with 16 samples.

Results

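The data describe 10 Sox genes, Sox1, Sox2, Sox4, Sox6, Sox8, Sox9, Sox10, Sox11, Sox13 and Sox21, in RNA from the mouse somatosensory cortex. The rule that picked them uses gene symbols and no measured value, but the set was proposed with earlier results of these data known. They make up 10 of the 24060 genes in each of 16 libraries. All 16 libraries came from Aldh1l1-cre/ERT2 x RiboTag mice on a C57BL/6J background, in which tamoxifen-activated Cre under the Aldh1l1 promoter, active in astrocytes, switches on an HA-tagged ribosomal protein. The mice were 3 months old and, per the labels, had received tamoxifen at 2 months of age, 1 month before the test, whereas the methods give a shorter interval. RNA bound to tagged ribosomes was immunoprecipitated (IP), and RNA of the cleared lysate, from all cell types, served as INPUT. The 4 groups were naive IP (n = 4 libraries), stressed IP (n = 4), naive INPUT (n = 4) and stressed INPUT (n = 4), where stressed mice swam for 20 min and rested for 90 min in the home cage before tissue was taken. The paper's methods list 4 males and 4 females and take INPUT and IP from 1 lysate per animal, so each IP library has a partner in INPUT. The labels give neither the sex of a mouse nor which IP and INPUT libraries came from the same mouse. Libraries were therefore compared as independent samples, which ignores this pairing.

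Sox proteins recognise DNA through a shared HMG box that bends the helix, and they act with partner factors rather than alone. The SoxB1 proteins Sox1 and Sox2 keep neural progenitors undifferentiated, and the SoxB2 protein Sox21 opposes them. The SoxC proteins Sox4 and Sox11 activate genes of young neurons, the SoxD proteins Sox6 and Sox13 lack an activation domain and modify the action of other Sox proteins, and the SoxE proteins direct glia, with Sox9 in astrocytes, Sox10 in the oligodendrocyte lineage and Sox8 in both.

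Between 16392876 and 25814364 reads per library lay on genes, so a count of 3 reads equals at most 0.183 counts per 1000000 reads (CPM) in any library. The IP held astrocyte RNA above all. All 8 astrocyte markers (Slc1a2, Slc1a3, Aldoc, Aqp4, Gja1, Aldh1l1, S100b and Gfap) were higher in IP than in INPUT, and their summed level was 92086 to 96127 CPM in naive IP and 6001 to 6416 CPM in naive INPUT. The 6 neuron markers, Rbfox3, Snap25, Syt1, Slc17a7, Gad1 and Stmn2, were all lower and their sum in IP came to 4.78% of that in INPUT in naive mice, so RNA of other cells was depleted but present. In bulk RNA of this kind, fewer cells of a type and less RNA per cell cannot be told apart.

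The promoters of 3 members are shown because the calls after stress, given below, differ between them. Sox2 and Sox21 fell after stress in IP, and Sox8, which like them was higher in IP than in INPUT, was not called after stress. RefSeq promoter windows on GRCm38.p6 were matched for 8 of the 10 members, not for Sox9 and Sox10. Each line gives the 250 bases before the annotated start, 5′ to 3′ on the gene's strand. RefSeq starts Sox2 upstream of the GENCODE start used for its coordinates below. Sox2 is read from chr3:34649745-34649994 on the plus strand, Sox21 from chr14:118237031-118237280 on the minus strand and Sox8 from chr17:25570687-25570936 on the minus strand. Capitals mark matches, on either strand, to a CCAAT box (CCAAT), a GC box (GGGCGG) or a TCF/LEF-type site (CTTTGA).
Sox2: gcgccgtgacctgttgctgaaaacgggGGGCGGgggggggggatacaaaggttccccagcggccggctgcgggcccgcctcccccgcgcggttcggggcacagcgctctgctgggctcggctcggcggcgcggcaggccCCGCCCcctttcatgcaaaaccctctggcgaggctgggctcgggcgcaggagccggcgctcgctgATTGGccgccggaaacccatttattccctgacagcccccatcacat
Sox21: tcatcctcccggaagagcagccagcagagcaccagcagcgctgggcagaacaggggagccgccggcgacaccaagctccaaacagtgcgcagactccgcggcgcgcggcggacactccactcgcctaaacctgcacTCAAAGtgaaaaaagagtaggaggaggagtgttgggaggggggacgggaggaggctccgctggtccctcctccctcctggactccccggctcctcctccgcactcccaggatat
Sox8: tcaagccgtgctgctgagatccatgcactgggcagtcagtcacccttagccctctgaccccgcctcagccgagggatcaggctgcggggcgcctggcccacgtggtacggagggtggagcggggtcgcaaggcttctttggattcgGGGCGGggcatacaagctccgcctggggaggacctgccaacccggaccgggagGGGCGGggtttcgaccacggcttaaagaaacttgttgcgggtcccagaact
The Sox2 window held 2 GC boxes and 1 CCAAT box, the Sox8 window 2 GC boxes, and the Sox21 window 1 TCF/LEF-type site. Among 32851 promoter windows of the same length, 32.7% held a GC box, 33.8% a CCAAT box and 13.8% a TCF/LEF-type site. The 3 windows were rich in G and C, with 72.0% in Sox2, 65.6% in Sox8 and 65.2% in Sox21 against a median of 52.4% over all windows. Neither a TATA box (TATAAA, in 12.4% of all windows), a Sox-type site (AACAAT, in 9.42%) nor a full glucocorticoid response element (AGAACA and TGTTCT with 3 bases between, in 3 of the 32851 windows) was found in these 3 windows on either strand. The searched motifs did not overlap one another in these windows. Among members not called after stress, the Sox1 and Sox13 windows held 71.2% and 72.4% G and C, and those of Sox11 and Sox4 58.0% and 50.8%. Some Sox6 windows, also of a member not called, held a TCF/LEF-type site. A link between these sequences and the stress calls was not tested.

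Sox9 showed the largest excess in IP among the members. It lies on chr11:112782224-112787760, plus strand (GENCODE M21 on GRCm38, as for all genes below), and its product is needed to start gliogenesis and is kept in mature astrocytes. In naive IP the 4 libraries held 291, 343, 295 and 348 CPM, and in naive INPUT 19.5, 21.4, 16.1 and 22.3 CPM. The lowest IP library was far above the highest INPUT library, and the ratio of the group means was 16.1. On the log2 scale the difference was 4.01 (SE 0.10, adjusted p = 1.67e-13 by limma), and in stressed mice it was 3.91 (SE 0.10, adjusted p = 2.13e-12). The 8 astrocyte markers had a median difference of 3.51 in naive mice, with a range of 2.19 to 4.13.

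The 3 SoxB members were higher in IP as well. Sox21, on chr14:118233232-118237030, minus strand, measured 101 ± 8.62 CPM (SD, n = 4) in naive IP and 10.1 ± 1.64 CPM (n = 4) in naive INPUT, 10.0-fold more. Sox1, on chr8:12395295-12400126, plus strand, measured 157 ± 6.77 CPM and 22.9 ± 1.17 CPM in the same groups, 6.83-fold more. Sox2, on chr3:34650405-34652461, plus strand, measured 223 ± 31.8 CPM and 36.7 ± 4.61 CPM, 6.08-fold more. All 3 genes consist of a single exon in GENCODE M21, and no IP library overlapped an INPUT library in any of them. The log2 differences in naive mice were 3.32 for Sox21 (SE 0.11, adjusted p = 3.12e-12), 2.77 for Sox1 (SE 0.06, adjusted p = 6.09e-14) and 2.60 for Sox2 (SE 0.11, adjusted p = 3.64e-11). Sox2 lies inside the longer noncoding gene Sox2ot on the same strand, with no shared exon bases. Sox2ot was lower in IP, at 12.3 ± 3.28 CPM in naive IP and 28.2 ± 4.84 CPM in naive INPUT (log2 difference -1.22, SE 0.18, adjusted p = 2.91e-05).

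Within SoxD, both members were higher in IP, by different amounts. Sox13, on chr1:133382303-133424377, minus strand, held 30.6, 30.6, 27.7 and 30.8 CPM in naive IP and 4.29, 4.00, 4.84 and 4.32 CPM in naive INPUT, a log2 difference of 2.75 (SE 0.09, adjusted p = 4.29e-12). Sox6, on chr7:115470872-116038796, minus strand, held 114, 114, 110 and 125 CPM in naive IP and 33.5, 37.3, 32.4 and 38.4 CPM in naive INPUT, a log2 difference of 1.71 (SE 0.07, adjusted p = 2.79e-11). The 95% intervals of these differences, 2.55 to 2.96 for Sox13 and 1.56 to 1.86 for Sox6, did not overlap. Sox6 therefore had more reads than Sox13 in both fractions and the smaller difference between them.

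The 3 SoxE members covered the whole range. Sox8, on chr17:25565892-25570686, minus strand, measured 131 ± 14.3 CPM in naive IP and 44.5 ± 6.21 CPM in naive INPUT, 2.95-fold more (log2 difference 1.56, SE 0.10, adjusted p = 6.10e-09). Its exons share 329 bases with the antisense gene 2810468N07Rik and the strand setting of the count is not stated, so reads of the pair may be mixed there. 2810468N07Rik itself was lower in IP, with a log2 difference of -0.75 (SE 0.10, adjusted p = 9.29e-06). This is near the median of -0.64 over all 13339 genes tested.

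Sox10, on chr15:79154908-79165240, minus strand, was the opposite of Sox9. Naive IP held 2.94, 3.90, 1.72 and 3.29 CPM, from 44 to 87 reads, and naive INPUT 31.2, 36.8, 31.2 and 30.4 CPM. The IP level was 9.15% of the INPUT level in naive mice and 7.64% in stressed mice, and the log2 differences were -3.46 (SE 0.19, adjusted p = 8.79e-10) and -3.75 (SE 0.25, adjusted p = 1.77e-08). Sox10 activates myelin genes, and the 4 such genes reported here, Mbp, Mag, Myrf and Gjb1, were all lower in IP, with a median log2 difference of -3.84 in naive mice against -0.64 over all 13339 genes tested. Mbp, encoding a major myelin protein, measured 705 ± 71.8 CPM in naive INPUT and 52.4 ± 6.90 CPM in naive IP. Of the 5 oligodendrocyte markers, 4 (Mog, Mobp, Ermn and Opalin) were lower, and Cnp was higher at 148 ± 9.86 against 115 ± 5.78 CPM. The list's sum was 152 to 170 CPM in naive IP and 251 to 278 CPM in naive INPUT. The 3 precursor markers Pdgfra, Cspg4 and Gpr17 summed to 18.8 to 29.5 CPM in naive IP and 129 to 136 CPM in naive INPUT, or 17.3% by their means. The part of residual oligodendrocyte RNA in the Sox10 reads of the IP was not tested.

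The SoxC members did not separate from INPUT as the others did. Sox4, on chr13:28948919-28953713, minus strand, held 19.7, 17.6, 11.6 and 21.4 CPM in naive IP and 21.6, 17.6, 18.3 and 20.4 CPM in naive INPUT. Sox11, on chr12:27334264-27342574, minus strand, held 27.7, 30.0, 25.1 and 37.8 CPM in naive IP and 27.4, 28.6, 26.3 and 27.1 CPM in naive INPUT. The fractions overlapped for both genes. In naive mice neither difference passed the test, with -0.18 for Sox4 (95% interval -0.52 to 0.16, adjusted p = 0.296) and 0.12 for Sox11 (95% interval -0.11 to 0.35, adjusted p = 0.287). In stressed mice Sox4 differed by -0.01 (adjusted p = 0.935) and Sox11 was lower in IP by the fit, at -0.38 (SE 0.11, adjusted p = 0.00599), although the 2 fractions overlapped there and the exact permutation p was 0.0571. These directions depend on the scaling. The median gene lay at -0.64 in naive and -0.63 in stressed mice, and with libraries rescaled by their median ratio Sox4 became 0.46 (adjusted p = 0.0103) and Sox11 0.76 (adjusted p = 1.44e-05) in naive mice, and 0.62 (adjusted p = 0.000109) and 0.24 (adjusted p = 0.0715) in stressed mice. Tubb3 and Dcx, neuronal targets of SoxC proteins, were both lower in IP, Tubb3 at 19.9 ± 2.97 against 365 ± 31.1 CPM and Dcx at 8.77 ± 2.17 against 33.1 ± 1.84 CPM in naive mice.

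**Figure D1:**
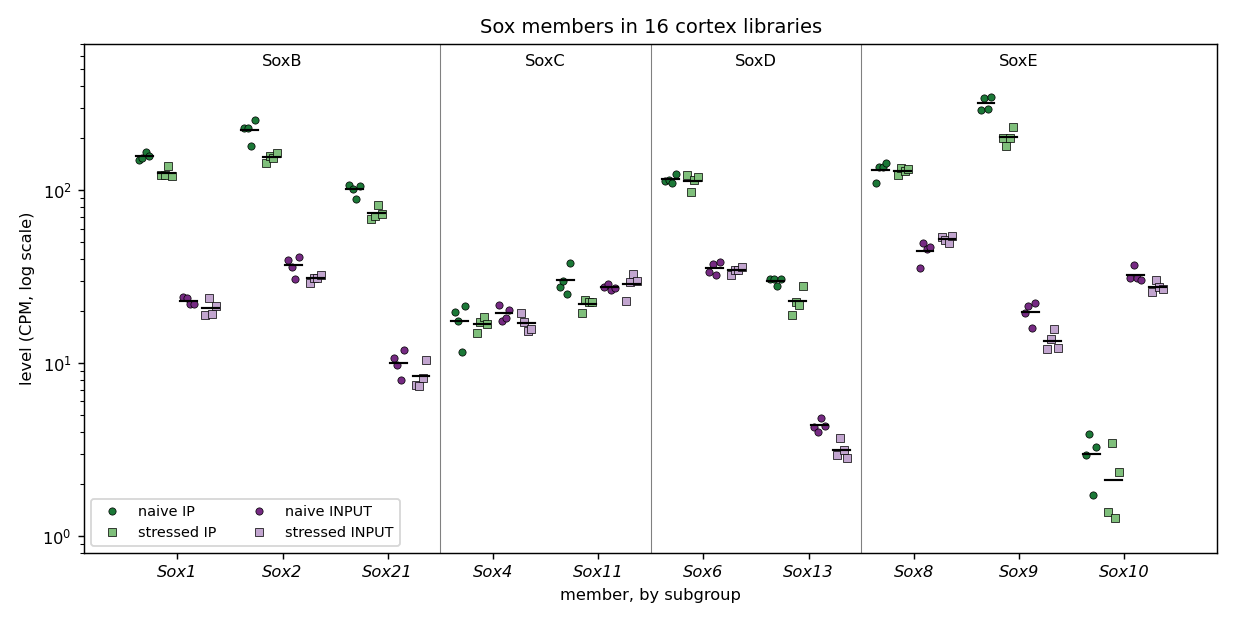
Level of each member in CPM (vertical axis, log scale) in every library, with 4 points a group and a black bar at the group mean. The members of SoxB, SoxD, Sox8 and Sox9 sit higher in both IP groups than in both INPUT groups, Sox4 and Sox11 overlap, and Sox10 sits at 1.28 to 3.90 CPM in IP and 25.9 to 36.8 CPM in INPUT.

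In counts, 7 of the 10 members were higher in IP and 1 was lower in naive mice, and 7 were higher and 2 lower in stressed mice. Over all genes tested, 23.7% were called higher and 64.0% lower in naive mice, and 23.6% higher and 62.5% lower in stressed mice. The share of higher members was above that of all genes and the share of lower members below it. The members were chosen with earlier results of these data known, so these shares describe the list and do not test it. With median-ratio rescaling the calls over all genes in naive mice were 5589 higher and 5642 lower in place of 3158 and 8540, and in stressed mice 5446 and 5524 in place of 3143 and 8332. Under that rescaling and under quantile normalization, the 7 higher members and Sox10 kept their direction in both kinds of mice.

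**Figure D2:**
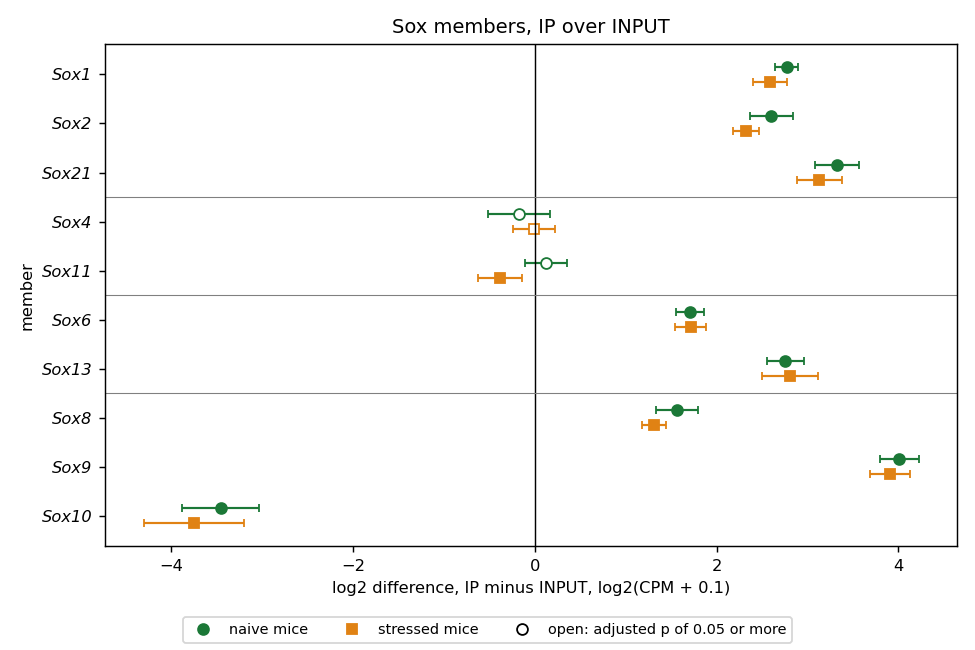
Log2 difference of IP minus INPUT on log2(CPM + 0.1) for each member, in naive mice (circles) and stressed mice (squares), with 95% intervals from limma. Filled symbols passed the adjusted p of 0.05, and values run from 4.01 for Sox9 to -3.75 for Sox10. Sox4 lies at -0.18 in naive and -0.01 in stressed mice. Sox11 lies at 0.12 in naive and -0.38 in stressed mice, where its symbol is filled.

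Of the 10 further Sox genes of the mouse, 5 passed the filter on low values in the fraction comparison. Of these, 2 were higher and 3 lower in IP, against 23.7% higher and 64.0% lower over all genes in naive mice. Their median log2 difference was -0.99 in naive mice. Sox7, Sox17 and Sox18 averaged under 1 CPM in 1 fraction and passed the filter only through the other. The filter thus largely set their direction, and the count is no support for a pattern. Sox5, the third SoxD gene, was higher in IP at 88.8 ± 3.27 against 54.3 ± 9.04 CPM in naive mice, and Sox7, a SoxF gene known from vessels, was higher at 2.92 ± 0.306 against 0.578 ± 0.258 CPM. The other SoxF genes were lower, Sox17 at 0.312 ± 0.0930 against 2.16 ± 0.759 CPM and Sox18 at 0.273 ± 0.0794 against 3.66 ± 0.873 CPM. The 5 endothelial markers Cldn5, Pecam1, Flt1, Esam and Cdh5 were all lower too. Sox12, the third SoxC gene, was lower at 7.10 ± 0.847 against 14.2 ± 1.87 CPM. Of the 5 that did not pass, Sox3 stayed at or below 1.03 CPM, Sox15 and Sox30 below it, Sox14 had at most 1 read in a library, and Sry had 0 reads in all 16, which allows a level of up to 0.183 CPM.

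Known partners of the members were also looked at. The class III POU factors bind DNA beside Sox2 and Sox11. Pou3f2, Pou3f3 and Pou3f4 were higher in IP in naive mice, with log2 differences of 0.28, 1.21 and 2.77, and Pou3f1 was lower at -4.21. The Sox9 list held the nuclear factor I genes Nfia, Nfib and Nfix, which act with Sox9 in astrocyte formation, and the targets Apcdd1, Mmd2 and Zcchc24. Of these 6 genes 5 were higher in IP in naive mice, led by Nfia at 395 ± 33.3 against 56.7 ± 6.40 CPM, and Nfix did not pass at 298 ± 28.4 against 269 ± 13.8 CPM (adjusted p = 0.0661).

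Levels of different members were compared per kilobase of annotated exon. In naive IP the order was Sox2 (109 ± 15.4 CPM per kb), Sox9 (77.2 ± 7.34), Sox8 (42.1 ± 4.59), Sox1 (32.4 ± 1.40), Sox21 (26.6 ± 2.27), Sox6 (7.79 ± 0.429), Sox13 (6.95 ± 0.344), Sox4 (3.66 ± 0.892), Sox11 (3.63 ± 0.656) and Sox10 (0.971 ± 0.300). Of the neighbours in this order, Sox4 and Sox11 overlapped and the others did not. In naive INPUT the order began with Sox2 (17.9 ± 2.24), Sox8 (14.3 ± 1.99) and Sox10 (10.6 ± 0.974), of which Sox2 overlapped Sox8 and Sox8 overlapped Sox10, and Sox9 came behind them at 4.79 ± 0.669, overlapping Sox1 at 4.74 ± 0.241. Sox13 was at the end with 1.01 ± 0.0805 CPM per kb. Sox6 has 16 annotated transcripts whose exons add up to 14832 bases, and over its longest transcript of 8668 bases its level in naive IP was 13.3 CPM per kb, which left the order in IP as it was and moved Sox6 ahead of Sox4 in INPUT.

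The second question was whether the swim changed these genes. In IP, 3 of the 10 members fell (Sox9, Sox2 and Sox21) and none rose, against 0.224% of 12501 genes called lower. All 10 fitted differences were negative, with a median of -0.43 for the members and of -0.00359 for all genes tested, and 6 members had an unadjusted p under 0.05, as had 8.27% of all genes tested. Of the 12501 genes, 6383 had a negative difference. With 1 library left out, the signs of Sox4, Sox6 and Sox8 turned in some fits.

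Sox9 held 291, 343, 295 and 348 CPM in naive IP and 200, 181, 199 and 232 CPM in stressed IP. Every stressed library was below every naive library, and the level fell by 0.65 on the log2 scale (SE 0.08, adjusted p = 0.00621), to a mean ratio of 0.636. Sox2 held 228, 230, 179 and 255 CPM in naive IP and 143, 157, 153 and 165 CPM in stressed IP, and fell by 0.52 (SE 0.09, adjusted p = 0.0401). Sox21 held 108, 101, 88.6 and 106 CPM in naive IP and 68.5, 71.1, 82.2 and 72.6 CPM in stressed IP, and fell by 0.45 (SE 0.08, adjusted p = 0.0322). For Sox2 and Sox21 too, the stressed and naive libraries did not overlap. The exact permutation p was 0.0286 for each of the 3 genes, the smallest that 70 labelings of 8 libraries allow. Sox1, Sox11, Sox5, Sox7 and Sox12, which were not called, had the same p and no overlap in IP. The share of all genes without overlap was not computed, so the lack of overlap adds no support to the calls.

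The call for Sox9 held when any 1 library was left out, with adjusted p up to 0.0350, but was lost without a variance trend (adjusted p = 0.0620). The Sox2 call was lost without naive IP replicate 2, 8 or 13 or stressed IP replicate 4, 5 or 6 (adjusted p of 0.173, 0.152, 0.146, 0.149, 0.127 and 0.137), and its differences without 1 library ran from -0.62 to -0.45. The Sox21 call was lost without naive IP replicate 2, 8 or 13 or stressed IP replicate 4 or 5 (adjusted p of 0.146, 0.118, 0.144, 0.108 and 0.120), and its differences ran from -0.51 to -0.42. 

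The other members in IP gave smaller or less even differences. Sox1 held 149, 154, 165 and 158 CPM in naive IP and 122, 122, 139 and 121 CPM in stressed IP, with no overlap, a difference of -0.32 (SE 0.06) and an adjusted p of 0.0526, just outside the threshold. With 1 library left out the adjusted p ran from 0.0386, without stressed IP replicate 6, its highest stressed library, to 0.193, and 1 of 8 fits passed. Sox13 held 18.9, 22.7, 21.5 and 27.8 CPM in stressed IP, and 1 of these 4 libraries reached the naive range (difference -0.41, SE 0.11, adjusted p = 0.205). With 1 library left out the adjusted p ran from 0.0171, without that library (stressed IP replicate 15), to 0.551, and 1 of 8 fits passed. Sox11 held 19.6, 23.0, 22.6 and 22.5 CPM in stressed IP, all below the naive libraries, with a difference of -0.44 (SE 0.12, adjusted p = 0.200). Sox10 differed by -0.52 with a wide 95% interval of -1.23 to 0.19 at 28 to 87 reads a library (adjusted p = 0.728).

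Sox6, Sox8 and Sox4 showed no call and small estimates. Sox6 measured 116 ± 6.37 CPM in naive IP and 113 ± 10.9 CPM in stressed IP, with a 95% interval of the log2 difference from -0.19 to 0.13. Sox8 measured 131 ± 14.3 and 130 ± 5.41 CPM, with an interval from -0.18 to 0.16. Sox4 measured 17.6 ± 4.28 and 16.9 ± 1.47 CPM, with an interval from -0.38 to 0.33. All 3 intervals lie above -0.45, the estimate for Sox21. The interval of Sox21 itself, -0.62 to -0.28, overlapped that of Sox4 but not those of Sox6 and Sox8. The members were not tested against each other.

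**Figure D3:**
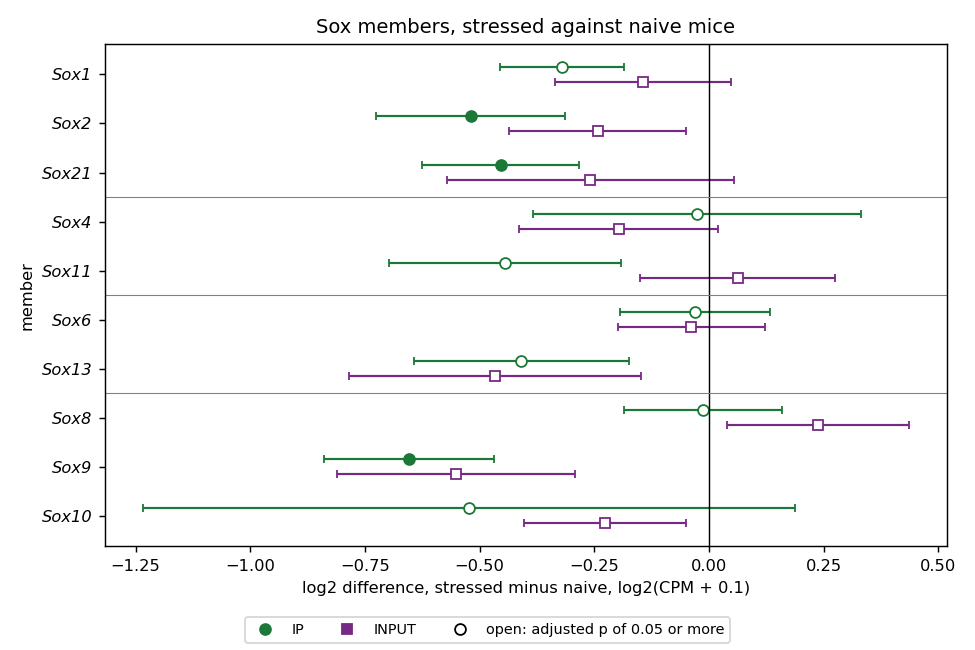
Log2 difference of stressed minus naive mice on log2(CPM + 0.1) for each member, in IP (circles) and INPUT (squares), with 95% intervals from limma and filled symbols past the adjusted p of 0.05. Sox9, Sox2 and Sox21 in IP are filled, at -0.65, -0.52 and -0.45, and all squares are open.

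Ratios within a library, which do not depend on its scaling, put the SoxE and SoxD members against each other. Sox9 per Sox8 was 2.44 ± 0.206 (SD, n = 4) in naive IP and 1.57 ± 0.170 in stressed IP, and Sox9 per Sox6 was 2.76 ± 0.190 and 1.79 ± 0.135. Naive and stressed IP libraries did not overlap in either ratio, nor in Sox2 per Sox6 (1.93 ± 0.198 and 1.38 ± 0.180). In INPUT, too, naive and stressed libraries did not overlap in any of these ratios. Sox9 per Sox8 was 0.451 ± 0.0817 in naive and 0.260 ± 0.0457 in stressed INPUT, and Sox9 per Sox6 0.558 ± 0.0414 and 0.391 ± 0.0498. Sox2 per Sox6 was 1.04 ± 0.106 and 0.897 ± 0.00269 there. Each of these pairs sets a member called in IP against one not called, so their separation in IP largely follows from the calls. Sox9 per Sox10, another such pair, overlapped in IP (116 ± 37.5 naive, 113 ± 47.2 stressed) and in INPUT (0.614 ± 0.0926 and 0.488 ± 0.0592). Sox9 per Sox4 did not overlap in IP (19.0 ± 4.73 and 12.1 ± 1.70) but did in INPUT (1.02 ± 0.160 and 0.804 ± 0.170). Sox9 per Sox2 was 1.44 ± 0.161 in naive IP and 1.31 ± 0.118 in stressed IP, and the groups overlapped. Of all reads on the 10 members, Sox9 took 28.3% ± 1.08 in naive IP and 23.5% ± 1.59 in stressed IP, and the SoxD members took 12.9% ± 0.423 and 15.8% ± 1.03. These shares sum to a fixed whole, and the levels of Sox6 and Sox13 themselves were not higher in stressed IP.

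**Figure D4:**
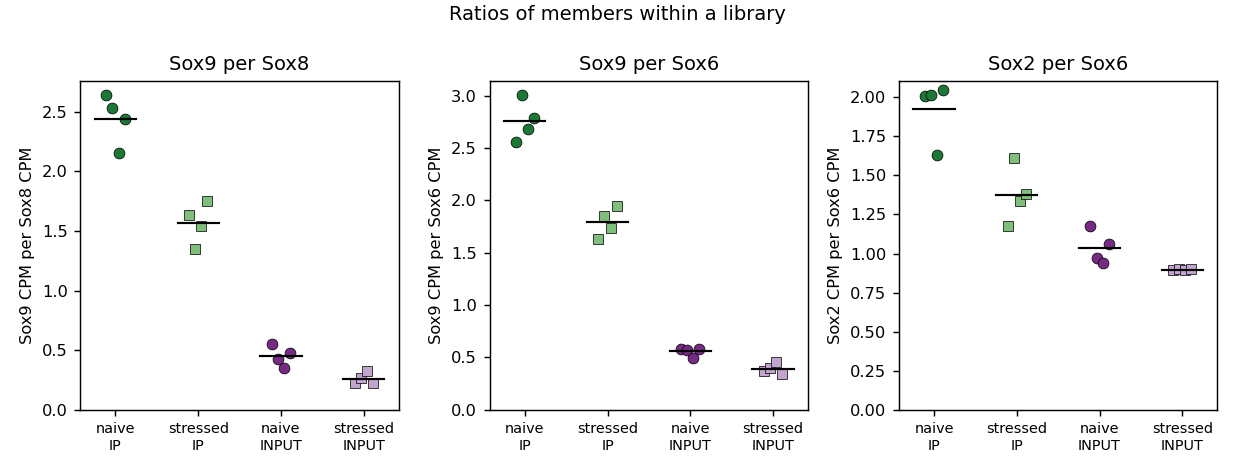
Ratio of the CPM of Sox9 to Sox8, Sox9 to Sox6 and Sox2 to Sox6 (vertical axes, from 0) in every library of the 4 groups, with a black bar at the group mean. Stressed IP lies below naive IP in each panel, for example 1.79 against 2.76 for Sox9 per Sox6. Stressed INPUT lies below naive INPUT too. The means of the INPUT groups lie lower still. In the Sox2 per Sox6 panel the highest naive INPUT library (1.18) meets the lowest stressed IP library (1.17).

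In INPUT no member passed the threshold, against 0.0442% of 13577 genes, and 8 of 10 differences were negative, as were 6952 of the 13577. An unadjusted p under 0.05 was found for 5 members and for 5.03% of all genes tested. Sox9 held 19.5, 21.4, 16.1 and 22.3 CPM in naive INPUT and 12.0, 13.8, 15.8 and 12.2 CPM in stressed INPUT. The groups did not overlap, and the difference was -0.55 (SE 0.12, adjusted p = 0.188). With 1 library left out the adjusted p ran from 0.0351, without naive INPUT replicate 14, the lowest naive library, to 0.737, and 1 of 8 fits passed. Sox13 held 2.93, 3.67, 3.15 and 2.81 CPM in stressed INPUT, below all naive libraries, with a difference of -0.47 (SE 0.15, adjusted p = 0.635). Sox8 lay the other way, at 44.5 ± 6.21 CPM in naive and 52.1 ± 2.17 CPM in stressed INPUT (difference 0.24, SE 0.09, adjusted p = 0.913). Sox10, the oligodendrocyte member, held 31.2, 36.8, 31.2 and 30.4 CPM in naive and 25.9, 30.4, 27.5 and 26.6 CPM in stressed INPUT (difference -0.23, SE 0.08, adjusted p = 0.844), and the groups met at 30.4 CPM. Sox1, Sox2, Sox4 and Sox21 differed by -0.14, -0.24, -0.20 and -0.26, Sox6 by -0.04 and Sox11 by 0.06.

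The stress effects in IP and INPUT were also compared with each other. No member differed between the fractions past the threshold, against 0.0225% of 13341 genes. Of the members, 7 of 10 differences of effects were negative, as were 6839 of the 13341. For Sox9 the difference of effects was -0.10 (95% interval -0.42 to 0.22), for Sox2 -0.28 (-0.56 to 0.01) and for Sox21 -0.20 (-0.55 to 0.16). A fall in IP alone is therefore not shown for these 3 genes. Sox11 had the only unadjusted p under 0.05 among the members, at -0.51 (SE 0.16, adjusted p = 0.740), from -0.44 in IP and 0.06 in INPUT. Over all genes tested, 4.71% had such a p.

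Of the cell type markers, 0 of 8 astrocyte, 0 of 6 neuron and 0 of 3 precursor genes passed the threshold after stress in IP. Nor did any of the 3 endothelial, 4 oligodendrocyte and 4 microglial genes tested there, where 0.440% of all genes passed. The astrocyte sum, most of which is Slc1a2, was 88717 to 100166 CPM in stressed IP, around the naive range, and the 8 log2 differences ran from -0.07 to 0.25 with a median of 0.04. Aqp4 was at 1347 to 1426 CPM in naive and 1503 to 1740 CPM in stressed IP, with no overlap (difference 0.20, unadjusted p = 0.00614, adjusted p = 0.312 by limma), and Gfap differed by 0.25 (unadjusted p = 0.0357, adjusted p = 0.560). The neuron sum was 337 to 494 CPM in stressed IP and 429 to 553 CPM in naive IP, and all 6 differences were negative with a median of -0.25. The endothelial sum was 8.52 to 10.5 CPM in stressed and 10.1 to 17.3 CPM in naive IP, and the 3 tested differences were negative with a median of -0.42, close to the -0.45 of Sox21. All 3 precursor differences were negative, with a median of -0.25. The other 2 lists were mixed. Of the 4 oligodendrocyte differences 3 were negative, with a median of -0.13. Of the 4 for the microglial markers Cx3cr1, P2ry12, C1qa and Csf1r 3 were negative, with a median of -0.10. The part of other cells' RNA in the fall of Sox9, Sox2 and Sox21 was not tested. None of the 4 POU factors, 0 of 6 genes of the Sox9 list and neither Tubb3 nor Dcx passed in IP or INPUT after stress. In IP an unadjusted p under 0.05 was found for Pou3f2, Pou3f3, Pou3f4, Nfix and Dcx, and for 8.27% of all genes tested. In INPUT it was found for Pou3f2, Tubb3 and Dcx, and for 5.03% of all genes tested. Dcx differed by -0.53 in IP and -0.31 in INPUT, and Tubb3 by 0.27 and 0.19. Nfia differed by -0.15 (SE 0.09), Mmd2 by 0.10 (SE 0.05) and Zcchc24 by -0.08 (SE 0.06) in IP, while the 4 POU factors differed by -0.31 to -0.22. Of the further Sox genes in IP, Sox12 was at 7.10 ± 0.847 CPM in naive and 4.69 ± 0.951 CPM in stressed mice (adjusted p = 0.230), Sox7 at 2.92 ± 0.306 and 1.69 ± 0.506 CPM (adjusted p = 0.308) and Sox5 at 88.8 ± 3.27 and 82.5 ± 2.99 CPM (adjusted p = 0.677).

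Across the 16 libraries, Pearson correlations of log2 levels were led by the split into IP and INPUT, which all these points share, and are given as a description over 9534 genes with a mean above 10 CPM. The genes most like Sox9 were Sall1 (r = 0.997), Sox2 (0.995) and Snx33 (0.995), and those most like Sox2 were Pou3f3 (0.997), Sox21 (0.996) and Sox9 (0.995). Sox21 was nearest to Sox2, Arhgef19 and Sema6d (0.996, 0.996 and 0.994), Sox1 to Soga1, Nr2e1 and Myh14 (0.997, 0.997 and 0.996), and Sox13 to Sall1, Sox9 and Caskin2 (0.997, 0.994 and 0.994). Sox6 was nearest to Kif13a, 4931406C07Rik and Kmt2c (0.998, 0.998 and 0.997), and Sox8 to Steap3, Pdk4 and Ctbp2 (0.989, 0.988 and 0.987). Sox10 was nearest to Nacad, Ubl3 and Csnk1g1 (0.994, 0.994 and 0.992), and its r with Sox9 was -0.94. The SoxC members had lower values, Sox11 with Rnd3, Irs1 and Jun (0.82, 0.81 and 0.76) and Sox4 with Vash1, Rdh13 and Relt (0.78, 0.75 and 0.74), and their r with each other was 0.26.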

How the data were processed

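Reads were aligned by the authors to mm10 (STAR), uniquely mapped fragments were counted on RefSeq genes (HTSeq), and log2 counts per 1000000 reads (log2 CPM) were deposited for 24060 genes in each of 16 libraries. The deposited log2 CPM values are scaled by library total alone: they share a floor of -6.40 for 0 reads, sum without it to 1000000, and gave whole reads in 100% of cases (tolerance 0.1 reads). The authors' notes also list edgeR and limma, without versions. No library was a copy of another.

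Here, log2(CPM + 0.1) was fitted in limma (version 3.58.1, R version 4.3.3) by lmFit and eBayes with a variance trend, for genes averaging more than 1 CPM over the libraries in the comparison. P-values were adjusted by Benjamini-Hochberg over all such genes, at a threshold of 0.05. Log2 differences on this scale understate changes of low genes. For single members an exact permutation test (two-sided, on group means) was added. The scripts were tested on simulated data. Depth was 16392876 to 25814364 reads a library, and a floor of 3 reads covers counting error only. Replicate numbers are the libraries' own.

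The members and gene lists were chosen with earlier results of these data known. Named are the members, the other Sox genes, the POU, Sox9, Sox10 and SoxC partner lists, the 3 genes most correlated with each member, and cell type markers that bear on a member; Sox2ot and 2810468N07Rik were added because they overlap one. Some genes of the Sox10 list are not reported here. The alternatives tried were pseudocounts of 1 and 0.01, no filter or one at 5 CPM, median-ratio rescaling, quantile normalization, limma-voom on recovered reads, no variance trend, array weights, a joint model of the 16 libraries, a covariate from Xist, and leaving out each library. Coordinates and lengths are from GENCODE M21 (GRCm38, which mm10 names too), and promoters from RefSeq. Other software was Python (3.11.15) with pandas (2.3.3), NumPy (2.4.6) and matplotlib (3.10.9).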

Additional observations from a re-analysis of the deposited data

Results flagged for a closer look

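Of 60 groups of 4 libraries examined over the Sox genes that passed the filter in any comparison, 7 held 1 library far from the other 3 by Dixon's criterion. By chance about 1 in 20 would. Among the members, Sox1 was at 139 CPM in stressed IP replicate 6 against 121 to 122 in the others, Sox11 at 19.6 CPM in stressed IP replicate 4 against 22.5 to 23.0, Sox13 at 27.7 CPM in naive IP replicate 11 against 30.6 to 30.8, and Sox10 at 36.8 CPM in naive INPUT replicate 7 against 30.4 to 31.2. Among the other Sox genes, Sox7 was at 0.937 CPM in stressed IP replicate 4 against 1.89 to 2.02, Sox17 at 2.37 CPM in stressed INPUT replicate 10 against 1.83 to 1.88, and Sox18 at 0.392 CPM in naive IP replicate 11 against 0.224 to 0.245. This last group rests on only 5 to 10 reads a library. The 7 fell in 5 libraries, of which stressed IP replicate 4 and naive IP replicate 11 held 2 each.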

How the results depend on the processing

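No paired analysis was possible because the labels give each library its own number and the groups share none. Of 538 member values under the other alternatives 516 kept their direction and side of the threshold, and of 480 with 1 library left out 442 did. The stress comparison in IP called 3 members and 55 of all genes; it called 0 members and 19 genes without a variance trend, 5 members and 143 genes with array weights, 124 genes with all 16 libraries in one model, and 1 to 4 members and 17 to 122 genes with 1 library left out. In INPUT, 0 members and 6 genes became 0 genes without a variance trend, 1 member and 50 genes with array weights, 2 genes with all 16 libraries, and 0 to 1 members and 1 to 32 genes with 1 library left out. The test between the stress effects called 3 genes, 19 with array weights, and 2 to 28 with 1 library left out. The causes were not tested. The direction of IP over INPUT turned for Sox4 with median-ratio rescaling (0.46 naive, 0.62 stressed), quantile normalization (0.45 and 0.63) and, in stressed mice, array weights (0.055), and for Sox11 in stressed mice with median-ratio rescaling (0.24) and quantile normalization (0.22). The difference of stress effects turned for Sox13 with a pseudocount of 1 (-0.019) and for Sox6 with median-ratio rescaling (-0.0012). With 1 library left out, IP over INPUT of Sox4 ran from -0.29 to 0.0066 in naive and -0.054 to 0.061 in stressed mice. The stress effect in IP ran from -0.21 to 0.080 for Sox4, -0.067 to 0.040 for Sox6 and -0.094 to 0.029 for Sox8, that in INPUT from -0.080 to 0.0026 for Sox6 and -0.0046 to 0.17 for Sox11, and the difference of effects from -0.016 to 0.28 for Sox4, -0.033 to 0.078 for Sox6 and -0.045 to 0.14 for Sox13. In IP, the Sox2 call was also lost with no filter (adjusted p = 0.0525) and with Xist as a covariate (adjusted p = 0.0543), and the Sox21 call with all 16 libraries (adjusted p = 0.0879), and both without a variance trend (adjusted p of 0.177 and 0.141). Sox1 passed with array weights, all 16 libraries and Xist (adjusted p of 0.0443, 0.0403 and 0.0449) and Sox13 with array weights (0.0206). Sox10 rests on 28 to 87 reads per IP library, which limits its stress effect.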
